A study of Mus musculus with 6 samples.

Results

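Genes without a single count in the control libraries and with reads in every senescent library were examined in mouse adult fibroblasts (MAFs). The set held 204 of the 41703 genes considered, of 43346 in the count table. It was chosen by the counts themselves: 0 in each of the 3 control libraries and 10 or more in each of the 3 senescent libraries. Rows of the epidermal differentiation stretch on chromosome 3, and rows whose symbols begin with Krt, Kcn, Tnfsf, Olfr or Hist, were left out beforehand, which removed 15 further rows of this pattern. These 204 silent-to-on genes were 0.489% of the genes considered. Because this contrast selected them, no test of control against senescent cells is given for them, and their levels are a description.

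The cells were primary MAFs taken from ear tissue of C57BL6/J mice, all adult females, and grown at 3% O2 in medium with 10% serum. The control group was sham irradiated (0 Gy) and the senescent group was exposed to 20 Gy of X-rays, a dose that stops fibroblasts from dividing. The irradiated cells were then cultured for further weeks, and the methods give no such period for the control cells. Irradiation and time in culture therefore cannot be told apart. Cells of both groups were given 100 nM dexamethasone for 2 hours to align their circadian clocks and were harvested 12 hours later, so no library shows cells without dexamethasone. Poly(A) RNA was sequenced from 3 samples in each group. Neither the labels nor the methods say whether the 3 samples were separate isolations, so the spread between them may be technical.

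Cellular senescence is a lasting arrest of division in which chromatin is reorganised and a secretory, inflammatory programme is switched on. A differentiated cell such as a fibroblast keeps the genes of other lineages shut, many of them under Polycomb or DNA methylation. Genes of this kind include the transcription factors that lay out the body axis, synaptic genes, and genes of epithelial defence. A low level of RNA from such a gene can come from many cells with little RNA each or from few cells with more, and these cannot be told apart in bulk RNA.

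Control libraries held 50288454 to 61747564 counts and senescent libraries 53792998 to 82229553. Senescent replicate 3 differed most from the others in its group. The 8 fibroblast marker genes summed to 17600 to 19600 CPM in control and 6490 to 7740 CPM in senescent libraries, so the labelled cell type was present in both. The 7 cartilage markers, *Col2a1*, *Col11a1* and *Acan* among them, summed to 6690 to 7190 CPM in control and to 594 to 679 CPM in senescent libraries. CPM, the depth-normalised count of a gene, were computed on library totals scaled by the trimmed mean of M-values (TMM).

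The switch ran almost entirely 1 way. With the groups exchanged, the same rule found 1 gene, the microRNA locus *Mir5134*, with 14, 23 and 24 counts in control replicates 1 to 3 and none in senescent cells. That was 0.0024% of the genes considered. Without senescent replicate 3 the exchanged rule found 4 genes. Of 17962 genes at 0 in all control libraries, 1519 had at least 1 count in every senescent library, whereas of 13164 genes at 0 in all senescent libraries 49 had at least 1 in every control library. Senescent replicates 2 and 3 were deeper than any control library. With the counts of the expressing group scaled down to the smallest library total, 140 genes still met the rule, against 1 in the exchanged direction. The 0 of the silent group was still read on unscaled counts, which is harder to meet in the deeper senescent libraries. The scaling therefore does not remove depth from the comparison of the directions. The control silence was also part of a gradient: 123 genes on in senescence had 1 count summed over the control libraries, 104 had 2 and 80 had 3.

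**Figure D1:**
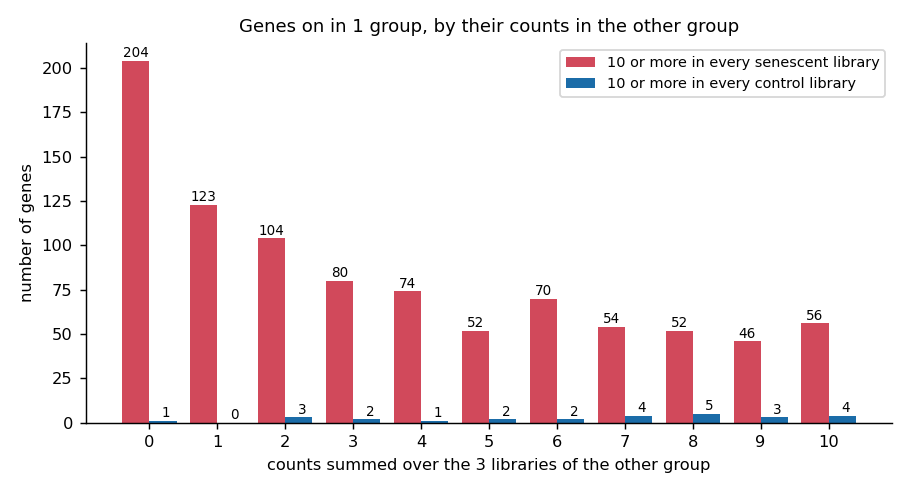
The x axis gives the counts a gene had summed over the 3 libraries of the other group (0 to 10), and the y axis the number of genes with 10 or more counts in every senescent library (red) or every control library (blue). The red bars fall from 204 at 0 counts to 56 at 10, and no blue bar is above 5.

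Most of the 204 genes were low. Genes are ordered by CPM here and in the plots, which is not scaled to transcript length and favours long genes, unless a value is given per kilobase of exon. Averaged over the senescent libraries, the middle gene of the set reached 0.341 CPM, the median level, and the means of the genes named here ran from 0.154 CPM (*2410124H12Rik*) to 2.45 CPM (*Gm8995*). At least 1 CPM was reached by 16 genes, and 146 stayed under 0.5 CPM. The lowest library of a gene had a median of 18 counts. A control level of 0 was bounded with 3 counts per control library, a mean of 0.0572 CPM. On that bound *2410124H12Rik* was at least 2.68-fold and *Gm8995* at least 42.9-fold higher in senescent cells, and the median bound over the 204 genes was 5.95. These bounds, and every fold bound given below, cover counting error in control only and take the senescent mean without error. Intervals cover counting error only. The same counts chose the genes, so the bounds are a description.

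The senescent libraries gave these genes similar weight. Summed over the 204 genes, senescent replicates 1, 2 and 3 gave 109, 103 and 105 CPM on their own unscaled totals. Replicate 1 was the highest library for 84 genes, replicate 2 for 56 and replicate 3 for 64. The coefficient of variation across the 3 libraries had a median of 21.2%. It was 19.6% over 3796 genes that were on in senescent cells at a mean of at most 100 counts without being silent in control. In 12 genes more than 50% of the summed counts came from 1 library. The 10 highest genes held 24.4% of the counts of the set.

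**Figure D2:**
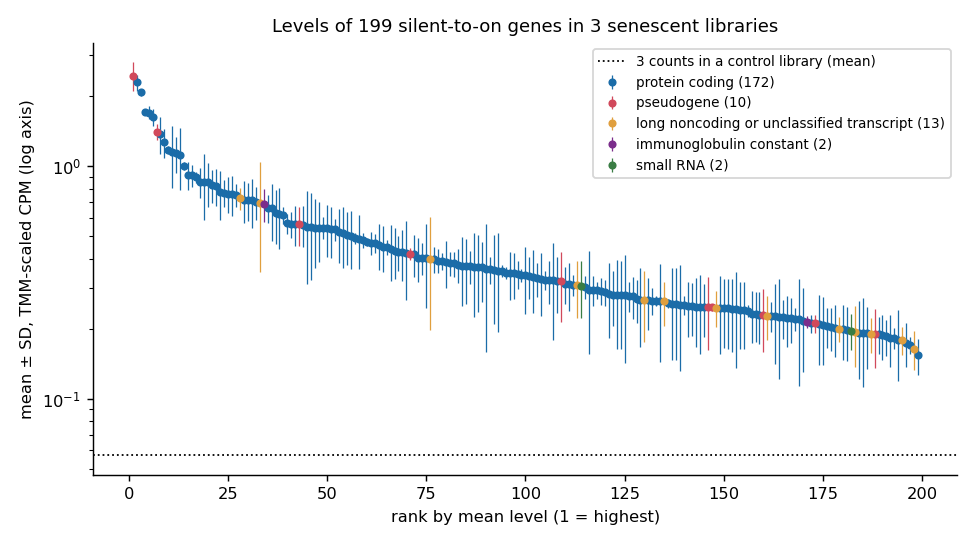
Each point is 1 of 199 of the 204 genes, ranked among those drawn on the x axis by mean level, with the mean and SD of the 3 senescent libraries in TMM-scaled CPM on a log y axis, coloured by biotype. The curve starts at 2.45 CPM (*Gm8995*) and flattens below 1 CPM; the dotted line marks 3 counts in a control library, 0.0572 CPM.

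The threshold cut through a continuum. There were 16 genes with exactly 10 counts in their lowest senescent library, led by the unclassified transcript *RP24-426M1.4* (10, 35 and 49 counts), the acute-phase gene *Orm3* (19, 10 and 27) and the nociceptin precursor *Pnoc* (16, 28 and 10). Just outside, 33 genes missed by 1 count. The highest of these were the interferon gene *Ifnab* (20, 9 and 31), the beta-defensin *Defb3* (9, 18 and 17) and the flavin monooxygenase *Fmo6* (9, 16 and 19). Some genes excluded by 1 control count were far above most of the set. The steroid reductase *Akr1c18* had 1, 0 and 0 counts in control and 382, 438 and 671 in senescent libraries. The nerve growth factor receptor *Ngfr* had 0, 0 and 1 against 203, 289 and 272, and the chemokine receptor *Ccr1* had 1, 0 and 0 against 145, 240 and 269.

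By biotype, 177 of the 204 genes (86.8%; exact 95% binomial interval 81.3 to 91.1) were protein coding. The share was 49.4% among all genes considered and 84.2% among the 16932 genes that were on in senescence but not silent in control. Among the 3796 of those at similarly low counts it was 54.3%. The remainder were 10 pseudogenes, 13 long noncoding or unclassified transcripts, 2 immunoglobulin constant genes and 2 small RNAs. Exonic length had a median of 2745 bases, against 2002 bases in the 3796 genes at like counts. Coding genes thus took a larger share here than among the 3796 genes at like counts, and about the same share as among the 16932. The 3796 genes had to be not silent in control. Their difference from the 204 therefore cannot be told apart from the rule that chose the set. Among coding genes alone the median exonic lengths were 2887 and 3022 bases.

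Roles were then assigned by hand to every gene, after the list had been seen. The largest group was neuronal or synaptic proteins with 41 genes. It was followed by 29 genes of other or uncertain function, 25 transcription factors, 25 noncoding genes and pseudogenes, and 19 immune or inflammatory proteins. Metabolic enzymes and barrier or antimicrobial proteins had 15 each, and neuropeptides, peptide hormones and their receptors 11. Growth factors and receptor kinases had 7, channels and gap junctions 6, other G protein-coupled receptors 6 and transporters 5.

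**Figure D3:**
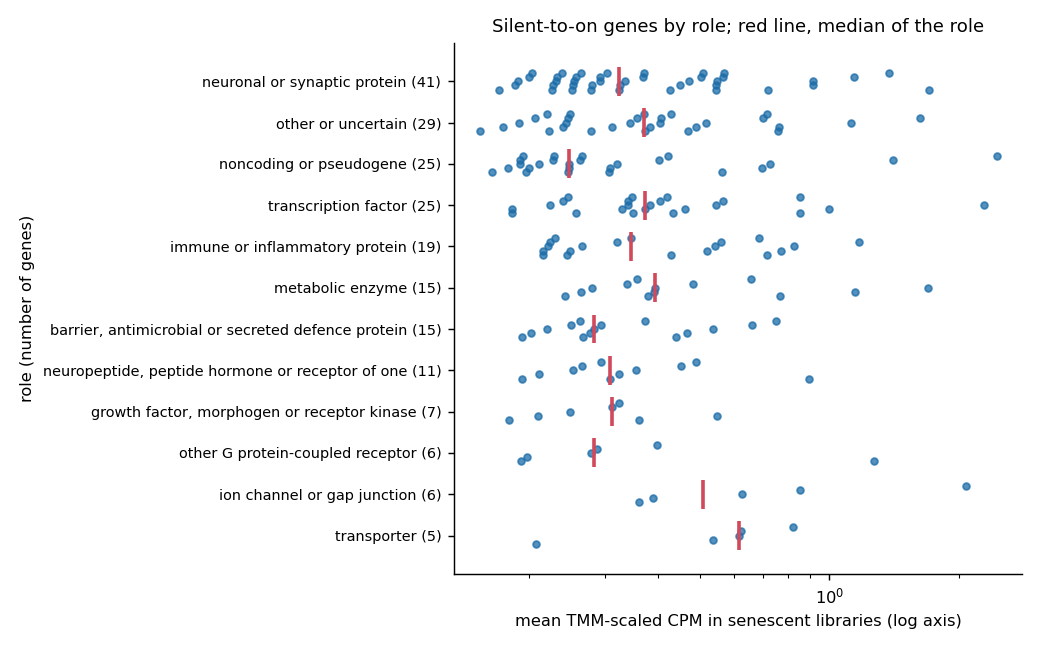
Each point is the mean level of 1 of 199 genes in the 3 senescent libraries (TMM-scaled CPM, log x axis), grouped by role on the y axis with the number of genes in brackets; red lines are medians over all genes of the role. Medians run from 0.248 CPM for noncoding genes and pseudogenes to 0.615 CPM for the 5 transporters, and the ranges of all roles overlap.

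The transcription factors included genes that give cells their position along the body axis. *Hoxb9*, a trunk-level Hox gene, had no reads in control cells and 139, 175 and 183 counts in senescent replicates 1 to 3, or 2.29 ± 0.185 CPM (SD, n = 3), at least 40.1-fold higher. It lies on chromosome 11 from 96271457 to 96276595 (mm10). *Hoxd10* had 19, 41 and 44 counts, *Hoxd11* 21, 29 and 47, and *Hoxa11* 17, 35 and 25, the last 3 belonging to the posterior Hox genes that pattern limbs and the urogenital tract. The neighbouring *Hoxd13* missed the rule by 1 control count, with 0, 0 and 1 against 38, 82 and 89. *Hoxd12* and *Hoxd9* were also at 0 in control but reached only 4, 5 and 7 and 5, 11 and 8 counts.

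Regulators of other organs were also on. *Pou4f3*, required for inner-ear hair cells, had 56, 82 and 81 counts (1.00 ± 0.0383 CPM), and its relative *Pou4f1*, a sensory neuron factor, 22, 24 and 35. *Gata4*, which acts in heart and gut, had 40, 77 and 74 counts and *Tfap2c*, of trophoblast and early ectoderm, 36, 80 and 76. The libraries of *Pou4f3* differed little, while *Tfap2c* was 1.55 times as high in its highest as in its lowest library. Also on were *Zic2*, *Tfec*, *Prdm8*, *Sall1*, *Bhlhe23*, *Sox21*, *Nkx6-1*, *Lbx1*, *Gtf2a1l*, *Nkx2-3*, *Foxa1*, *En1*, *Tlx1*, *Zbtb8b* and *Hes2*, between 0.183 and 0.566 CPM. Several are regulators whose usual tissues lie far from the dermis, such as the pancreas for *Nkx6-1* and the liver and lung for *Foxa1*.

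The wider class shows what the rule does not pick. A list of 495 developmental transcription factors, drawn up by symbol pattern, held 22 of the silent-to-on rows (4.44%), the antisense row *Hoxa11os* included. Over all genes considered the share was 0.489%. Another 237 genes of the list had enough counts for an edgeR quasi-likelihood test. At a Benjamini-Hochberg adjusted p under 0.05, 117 (49.4%) were higher in senescent cells and 66 (27.8%) lower. Over all 17589 genes tested, 36.2% were higher and 34.1% lower. Developmental factors therefore did not all go 1 way. A further 37 of the 495 had no reads in any library, against 12487 of the 41703 genes considered.

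Neuronal and synaptic genes formed the most numerous role. The neurofilament light chain *Nefl*, a scaffold protein of axons, had 93, 140 and 142 counts, or 1.71 ± 0.05 CPM. The highest library was 1.05 times the lowest, the narrowest spread of the 35 genes that averaged 50 or more counts. *Nefl* overlaps the annotated span of *Nefm*, the medium neurofilament chain, on the opposite strand. *Nefm* had 0, 2 and 0 counts in control and 139, 219 and 244 in senescent libraries, and whether reads were counted by strand is not given in the sources used here.

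Vesicle and synapse-organising genes followed at about 1 CPM. *Syt4*, a synaptotagmin of secretory vesicles, had 71, 95 and 140 counts, and *Rasd2*, a small GTPase of the striatum, 72, 96 and 77. *Cbln2*, a secreted synapse organiser, had 43, 75 and 87 counts and *Elfn2*, a synaptic leucine-rich repeat protein, 55, 75 and 68. *Slitrk4*, another synaptic adhesion protein, had 31, 59 and 72. *Snap25*, the membrane partner in transmitter release, was lower with 16, 22 and 29 counts, as was *Pcdh15*, a protocadherin of hair-cell bundles, with 17, 21 and 26. None of these genes had a read in the control cells.

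Cholinergic genes appeared as a pair at 1 locus. *Chat*, which makes acetylcholine, had 25, 32 and 21 counts. *Slc18a3*, the vesicular acetylcholine transporter, had 22, 22 and 14, and lies within the span of *Chat* on the same strand of chromosome 14. The lower counts of *Slc18a3* cannot be told apart from *Chat* reads where their annotations overlap. Receptors for transmitters were the muscarinic *Chrm3* (16, 20 and 37 counts) and the glutamate receptors *Grm2* (15, 20 and 21) and *Grm8* (15, 18 and 22).

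The remaining 28 neuronal and sensory genes lay between 0.170 and 0.568 CPM. They were *Csmd3*, *Gpm6a*, *Calb2*, *Ncan*, *Unc5d*, *Sez6l*, *Lppr5*, *Pvalb*, *Bex1*, *Grip1*, *Shisa3*, *Khdrbs2*, *Otog*, *Camkv*, *St8sia3*, *Mpped1*, *Cntnap2*, *Csmd2*, *Cpne4*, *Igsf1*, *Nkain2*, *Dab1*, *Opn5*, *Lrrc4b*, *Nxph1*, *Cntnap4*, *Atcay* and *Ush1c*, the inner-ear genes *Otog* (22, 25 and 22 counts) and *Ush1c* (10, 14 and 13) among them. *Opn5*, a violet-light opsin, had 18, 15 and 14 counts. *Cntnap2* (17, 26 and 11) and *Lrrc4b* (10, 20 and 15), adhesion proteins of axons and synapses, were close to the threshold.

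The 8 neuron markers, a list that holds 2 genes of the set, *Nefl* and *Snap25*, summed to 40 to 42.1 CPM in control and 46.3 to 55.4 CPM in senescent libraries. Of the other 6, *Stmn2*, *Tubb3*, *Elavl3* and *Syt1* were higher by edgeR and *Map2* was lower. The mean of *Stmn2* was 20.3 CPM in senescence, against 3.64 CPM in control. The nuclear neuron marker *Rbfox3* had 0 counts in control and 5, 13 and 9 in senescent libraries. The 9 Schwann cell and melanocyte markers summed to 72.2 to 75.9 CPM in control and 49.4 to 52.5 CPM in senescent libraries, with *Sox10* at 0 in control and at 20, 34 and 8 counts in senescent replicates. Their part in the counts of the neuronal genes was not tested.

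In the matching lists, 117 of 225 other synapse and axon adhesion genes tested were higher in senescent cells (52.0%, against 36.2% of all genes tested). Another 74 were lower (32.9%, close to the 34.1% of all genes tested). For neurotransmitter receptors 36 of 48 were higher and 5 lower. Neither list is independent of the choice to look at these genes.

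**Figure D4:**
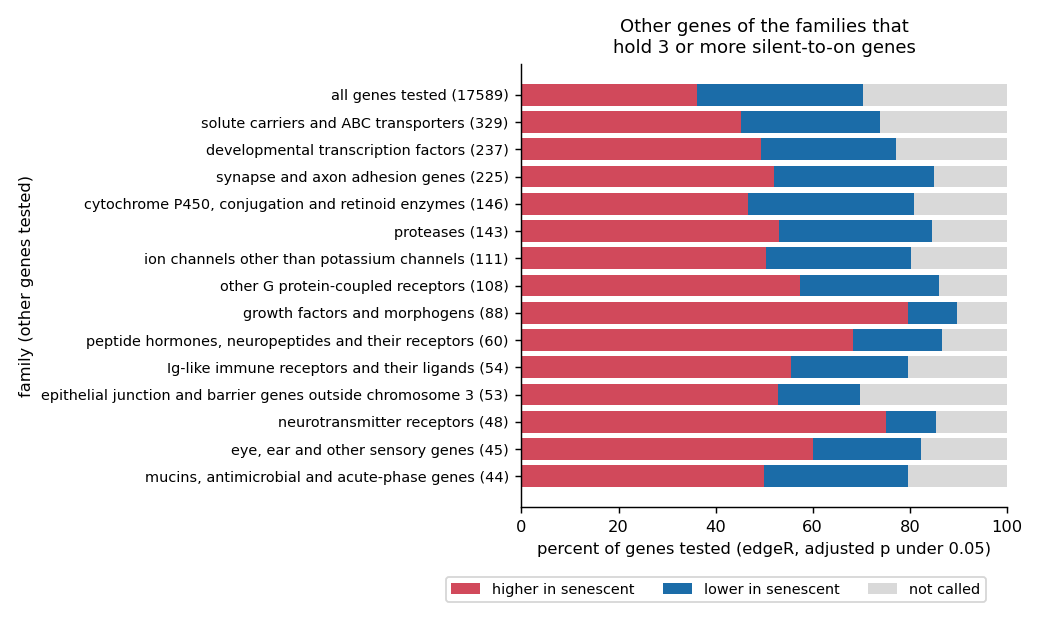
Bars give, for each family fixed by symbol pattern that holds at least 3 silent-to-on genes and 30 other tested genes, the percent of its other tested genes that were higher (red), lower (blue) or not called (grey) in senescent cells by edgeR; the number tested is in brackets. Growth factors (70 of 88 higher) and neurotransmitter receptors (36 of 48) have the longest red bars, against 36.2% over all genes tested.

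Peptide precursors and their receptors numbered 11. *Tac1*, the substance P precursor, had the most counts with 50, 67 and 80 (0.898 ± 0.0512 CPM; at least 15.7-fold higher). *Avpr1b*, a vasopressin receptor of the pituitary, had 19, 43 and 49 counts, *Pdyn*, the dynorphin precursor, 19, 37 and 46, and *Grp*, the gastrin-releasing peptide, 21, 27 and 29. *Npy*, *Crhr1*, *Ostn*, *Trh*, *Pnoc*, *Calcb* and *Tac2* lay between 0.192 and 0.324 CPM. Per kilobase of exon *Npy* (0.573 CPM per kb) and *Grp* (0.335) lay above *Tac1* (0.264). The tachykinin precursors *Tac1* and *Tac2* and the opioid-like precursors *Pdyn* and *Pnoc* were thus present at low levels. Of 60 other tested genes of the peptide hormone list, 41 were higher in senescent cells (68.3%, against 36.2% of all genes tested) and 11 lower (18.3%, against 34.1%).

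Channels and gap-junction genes were led by *Trpc6*, a cation channel opened by diacylglycerol. It had 118, 158 and 179 counts (2.08 ± 0.0757 CPM; at least 36.4-fold higher), with the highest library 1.07 times the lowest. The lens connexin *Gja3* (62, 69 and 49 counts) and its neighbour on chromosome 14, the skin and inner-ear connexin *Gjb6* (16, 33 and 39), were both on. Scaled for depth, *Gja3* was 1.93 times as high in replicate 1 as in replicate 3, so these connexins did not share an order of libraries. *Clic6* and the polycystin *Pkd1l2* had means of 0.627 and 0.360 CPM.

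*Sucnr1*, the receptor for succinate, had the highest level of the G protein-coupled receptors outside the peptide group, in CPM and per kilobase of exon, with 79, 85 and 111 counts (1.27 ± 0.180 CPM). The pheromone receptor *Vmn2r79* had 23, 27 and 37 counts, and the niacin and butyrate receptor *Hcar2* 18, 23 and 21. *Gpr182*, *Gpr55* and the leukotriene receptor *Cysltr2* had means of 0.279, 0.197 and 0.191 CPM. A list of 802 G protein-coupled receptors, which also holds *Avpr1b* and *Opn5*, had 491 with no reads in any of the 6 libraries. Over all 41703 genes considered, 12487 had none. Of 108 other tested genes of the list, 62 were higher in senescent cells (57.4%, against 36.2% of all genes tested). Another 31 were lower (28.7%, against 34.1%). The 5 transporters were *Atp13a4* (55, 56 and 65 counts), the organic anion transporter *Slco2b1* (36, 34 and 67), the proline transporter *Slc6a20a* (36, 44 and 54), *Slc5a11* (30, 53 and 34) and *Slc6a14* (14, 19 and 11).

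Growth factor and morphogen genes were few. *Wnt1*, a ligand of midbrain and neural crest development, had 44, 38 and 31 counts, *Gdf7*, a bone morphogenetic protein relative, 18, 37 and 15, and *Fgf3*, an inner-ear inducer, 20, 26 and 21. *Nell1*, *Ksr2*, the Wnt agonist *Rspo4* and the neuregulin receptor *Erbb4* had means of 0.361, 0.248, 0.210 and 0.180 CPM. Among the 88 other growth factors and morphogens tested, 70 were higher in senescent cells (79.5%, against 36.2% of all genes tested) and 9 lower (10.2%, against 34.1%). Of the 122 genes of the family, 3 met the silent-to-on rule (2.46%, against 0.489% of all genes considered).

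Immune genes among the 204 were of several kinds. *Nlrp2*, a NOD-like receptor, had 64, 97 and 96 counts (1.17 ± 0.0459 CPM; at least 20.5-fold higher), the highest library being 1.08 times the lowest. *Il1f9*, the interleukin-36 gamma gene of inflamed skin, had 52, 54 and 73 counts and *Ccl20*, the chemokine that draws CCR6-bearing lymphocytes, 31, 70 and 74. *Il21r* had 36, 42 and 32 counts, the lymphotoxin gene *Lta* 16, 25 and 12, and *Tlr13*, a sensor of bacterial ribosomal RNA, 17, 11 and 17. The 3 of these with the most counts encode a sensor and secreted ligands.

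Genes best known from blood cells were on at low counts. The IgM heavy-chain constant gene *Ighm* had 44, 45 and 59 counts, *Ighg1* 12, 18 and 17, and the light-chain gene *Iglc2* 19, 18 and 19. The B cell receptor subunit *Cd79b* had 19, 13 and 14. *Lilrb4*, an inhibitory myeloid receptor, had 32, 35 and 56 counts and its overlapping neighbour *Gp49a* 14, 13 and 23. The B cell list held *Cd79a* at 3, 4 and 3 counts in control and 9, 17 and 18 in senescent libraries. Its markers *Ms4a1* and *Pax5* did not pass 4 counts in any library. The immunoglobulin and T cell receptor list held 559 segments, of which 482 were at 0 in all libraries, against 12487 of the 41703 genes considered.

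Myeloid and endothelial markers moved with this group. The 9 macrophage markers found in the table summed to 8.56 to 9.42 CPM in control and 19.7 to 22.5 CPM in senescent libraries, and 7 of them were higher by edgeR. *Lyz2* and *Cd14* were among the 7, while *C1qa* and *C1qb* had at most 1 count in any library. T and NK cell markers summed to 0.552 to 0.919 CPM in control and 0.711 to 0.870 CPM in senescent libraries. Markers of the endothelium, the lining of blood vessels, also moved, 5 of 7 being higher and none lower by edgeR, and summed to 2.55 to 2.93 CPM in control and 8.29 to 8.85 CPM in senescent libraries. The part of blood and vessel cells in the immune counts was not tested. The remaining immune genes were *Ifi27l2b* (39, 68 and 50 counts), *Tnfaip8l3* (29, 33 and 58), *Skint7* (22, 27 and 19), *H2-M1*, *H2-M9*, *Klhl6* and *Fcamr*.

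Epithelial defence genes had means under 1 CPM. The urothelial plaque protein *Upk1b* had the most counts, 37, 66 and 64 (0.753 ± 0.0828 CPM), followed by the myelin and apical sorting protein *Mal* with 39, 57 and 47. The airway secretory genes *Bpifb6* (30, 47 and 40) and *Bpifb2* (14, 27 and 20) are neighbours on chromosome 2. *Mup3* (27, 33 and 42) and *Mup21* (14, 12 and 17), urinary pheromone carriers, are neighbours on chromosome 4, and reads of *Mup* genes are hard to place because their copies are near identical. Per kilobase of exon *Stfa3* (0.713 CPM per kb), *Mup3* (0.437) and *Defb1* (0.428) lay above *Upk1b* (0.425).

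Antimicrobial genes of gut and skin belonged to the same group. *Reg3g*, an antibacterial lectin, had 28, 24 and 43 counts, the beta-defensin *Defb1* 21, 39 and 21, and the gut protein *Lypd8* 18, 18 and 17. *Stfa3*, *Tmprss11b* (22, 17 and 20), the digestive protease *Ctrb1* (18, 21 and 18), *Orm3*, *Prom2* (11, 17 and 21) and the airway mucin *Muc5ac* (15, 14 and 11) completed the role. The 10 keratinocyte markers summed to 23.8 to 25.5 CPM in control and 16.3 to 22.9 CPM in senescent libraries, 1 of them (*Cdh1*) being higher and 1 (*Trp63*) lower by edgeR. *Krt14* and *Krt1* had at most 12 counts in any library. Their part in the epithelial counts was not tested.

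Metabolic enzymes of several pathways were on. *Inmt*, a methyltransferase for indole amines, had 99, 125 and 147 counts (1.70 ± 0.110 CPM; at least 29.7-fold higher). The heparan sulfate 3-O-sulfotransferase *Hs3st4* had 82, 63 and 99 counts and was 1.86 times as high in its highest as in its lowest library. *Hs3st6*, of the same family, had 23, 37 and 16. The fatty acid hydroxylase gene *Cyp4a12b* had 41, 70 and 58 counts, and the steroid dehydrogenase *Hsd3b6* 48, 41 and 50. Carboxylesterases, which cleave drug and lipid esters, were represented by *Ces2b* (25, 41 and 40), *Ces1d* (21, 25 and 37) and *Ces1g* (20, 31 and 22). *Ces1f*, which lies between the last 2 on chromosome 8, had 0, 2 and 0 counts against 118, 183 and 172. *Gsta2*, *Akr1c19*, *Pld5*, *Oxct2a* and *Wscd1* lay between 0.243 and 0.393 CPM. Of 146 other genes of the cytochrome and conjugation list, 68 were higher in senescent cells (46.6%, against 36.2% of all genes tested) and 50 lower (34.2%, against 34.1%).

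Of the noncoding genes, the 2 with the most counts were pseudogenes of 1 locus. *Gm8995* had 132, 170 and 239 counts (2.45 ± 0.348 CPM; at least 42.9-fold higher) and *9130208D14Rik* 73, 109 and 130 (1.41 ± 0.116 CPM). Together with *Gm8979* (27, 41 and 58), *Gm8989* (24, 31 and 37), *Gm18853* (14, 20 and 20) and *Gm18852* (12, 18 and 16) they formed the largest run of neighbouring silent-to-on genes. It spans chromosome 7 from 105824223 to 106511671 on the minus strand. The run surrounds *Gvin1* and *Gm4070*, coding genes for very large GTPases induced by interferon.

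Both coding neighbours moved the same way. *Gvin1* had 1 count in each control library and 363, 436 and 604 in senescent libraries, or 0.0191 ± 0.00203 CPM against 6.40 ± 0.836 CPM (edgeR adjusted p = 1.07e-07). *Gm4070* had 1, 3 and 2 counts against 396, 515 and 727, or 0.0370 ± 0.0154 against 7.42 ± 1.08 CPM (adjusted p = 1.66e-07). *Gm18852* lies inside *Gm4070* and *Gm18853* inside *Gvin1*. Similar copies can trade reads, so the split of counts among these 6 pseudogenes is uncertain. Not every row of the stretch was on, and 5 of the 10 others were at 0 in all 6 libraries.

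The long noncoding and unclassified transcripts numbered 13. The lincRNA *Gm12606* had 43, 61 and 54 counts (0.728 ± 0.0768 CPM) and lies within 10 kb downstream of *Cdkn2a*, the gene of the cell cycle inhibitor p16INK4a, on the same strand. *Cdkn2a* had 56, 73 and 62 counts in control and 268, 460 and 241 in senescent libraries (adjusted p = 3.98e-04). *RP23-81C12.2* was the most uneven of the more abundant genes, with 38, 83 and 30 counts and a highest library 2.95 times the lowest. Its strand is not known here. It overlaps *Gm26917*, which had a mean of 2519 counts in the senescent libraries and the same order, 2238, 3829 and 1489.

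The other noncoding rows were *RP24-426M1.4*, *Gm7893*, *1810020O05Rik*, *Gm13053*, *2010016I18Rik*, *Gm5834*, *Muc19*, *Gm649*, *Gm15912*, *Gm28309*, the snRNA *Gm24265* (13, 15 and 14 counts), *Gm14029*, *1600010M07Rik*, *Gm2427*, *Hoxa11os* (10, 16 and 13) and *RP23-136M3.5*. *Hoxa11os* overlaps *Hoxa11* on the opposite strand. *Gm28309* (11, 14 and 19) overlaps *Hoxd10* and *Hoxd11* on their own strand, so its reads cannot be told from theirs.

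*Mir196a-1*, a microRNA locus between the posterior Hox genes of the Hoxb cluster, had 14, 21 and 34 counts. It sits on chromosome 11 from 96265164 to 96265265, in front of *Hoxb9* on the same strand. Per kilobase of exon it was the highest of the set at 3.01 CPM per kb, over only 102 bases, against 0.337 for *Gm8995*. Poly(A) libraries of this kind do not capture mature microRNAs. Its main mature product is shown here from RefSeq (GRCm38.p6) because its seed, in capitals, is the part that pairs with targets, Hox messages being the best known.
mmu-miR-196a-5p: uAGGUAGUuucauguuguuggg

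Genes of other or uncertain function numbered 29. The most counts were in *3110039M20Rik* with 95, 134 and 124 (1.62 ± 0.135 CPM), a gene whose span overlaps that of a gene with more senescent counts on the same strand, so its reads are uncertain. *Prr32* followed with 62, 63 and 123 counts (1.12 ± 0.331 CPM), replicate 3 holding about as many counts as the other 2 together. The embryonic myosin *Myh3* had 23, 26 and 34 counts. The muscle regulators *Myod1* (6, 3 and 10) and *Pax7* (9, 9 and 11) were also at 0 in control, and the 10 skeletal muscle markers summed to 18.1 to 22.8 CPM in control and 17.6 to 30.3 CPM in senescent libraries. *Adamts8*, a secreted metalloprotease, had 30, 23 and 20. The others were *1700008I05Rik*, *Ccdc85a*, *Fam159b*, *Efcab6*, *Gm10800*, *Fam169a*, *Lrp1b*, *Crtac1*, *Usp17le*, *She*, *Elmod1*, *Tmem229a*, *Tmem163*, *AF529169*, *AI747448*, *A730049H05Rik*, *R3hdml*, *Astl*, *Ankrd63*, *D430041D05Rik*, *BC007180*, *Gm609*, *Dthd1*, *C87414* and *2410124H12Rik*, between 0.154 and 0.763 CPM.

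**Figure D5:**
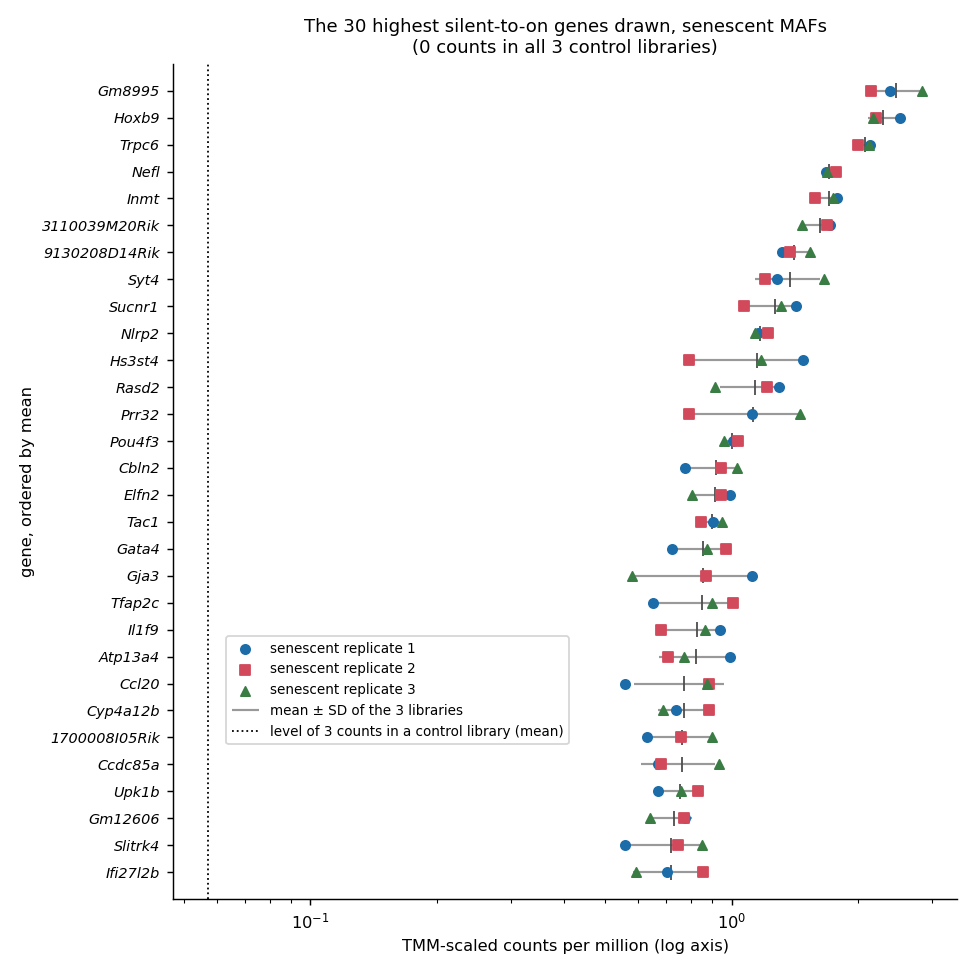
Points are the TMM-scaled CPM (log x axis) of the 30 highest of the 199 silent-to-on genes drawn, in senescent replicates 1 (circles), 2 (squares) and 3 (triangles), with grey bars for the mean ± SD of the 3 libraries. *Hs3st4*, *Prr32* and *Gja3* show wide bars and *Nefl*, *Trpc6* and *Nlrp2* narrow ones; the dotted line is the level of 3 counts in a control library.

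By position, 46 of the 204 genes had another within 200 kb, in 20 groups. Apart from the run on chromosome 7, there were 2 groups of 3: *Hoxd11*, *Gm28309* and *Hoxd10*, and *Astl*, *Prom2* and *Mal*, both on chromosome 2. Several pairs were relatives lying side by side, such as *Mup3* and *Mup21*, *H2-M9* and *H2-M1*, *Ces1d* and *Ces1g*, or *Gja3* and *Gjb6*. Other pairs were the homeobox genes *Tlx1* and *Lbx1* on chromosome 19 and *Ush1c* with *Otog* on chromosome 7.

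The positions of stronger genes nearby were compared. A gene with more senescent counts overlapped 25 of the 204 (12.3%), against 34.8% of the 3796 genes at like counts that were not silent in control. In 13 (6.37%) such a gene ended within 10 kb upstream on the same strand, against 17.3%. Neither held for 166 genes (81.4%, against 53.5%). Among the 38 with such a neighbour were *Nefl*, *3110039M20Rik*, *Ncan*, *Fam169a*, *Lrp1b*, *Hoxd11*, *Grip1*, *Pou4f1*, *Shisa3* and *Tmem163*. The part of neighbouring genes in their counts was not tested. The 204 genes had to be silent in control, and the 3796 compared genes had to be not silent. That choice alone would leave out of the 204 any gene catching stray reads from a neighbour active in control. The comparison therefore cannot show whether the 204 genes differ in their neighbours beyond the rule that chose them.

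Promoters were read from RefSeq (GRCm38.p6), as the 250 bases before and 50 after the start, for 122 of the 204 genes. For some genes the RefSeq start lay far from the start of the counted gene, 61370 bases for *Pld5*. Their median GC content was 57.3%, against 57.0% over all 16946 promoters considered. A CpG ratio of at least 0.6, a feature of CpG islands, was found in 48 (39.3%). The ratio was counted alone, with no limit on GC content. It was reached by 50.2% of all promoters and 41.1% of those of genes on at like counts. Of coding genes at 0 in all 6 libraries 2.87% had such a ratio. The 16 transcription factors with a promoter reached 62.5%, and the other 106 genes 35.8%. In base composition the set thus lay near other genes of its level and away from genes that stayed silent.

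Letters known from stress and clock factors were searched on both strands. The AP-1 letters TGACTCA or TGAGTCA occurred in 7 promoters (5.74%), against 4.50% of all promoters. The E-box CACGTG, read by the clock factors BMAL1 and CLOCK, occurred in 8 (6.56%, against 8.20%). The cyclic AMP element TGACGTCA was in none of the 122 (2.43% of all), and the TATA letters TATAAA were in 18 (14.8%, against 10.9%). Promoters of genes on at like counts had 4.76% (AP-1), 7.28% (E-box), 1.95% (cyclic AMP) and 10.6% (TATA). For coding genes at 0 in all 6 libraries the shares were, in the same order, 6.97%, 3.31%, 0.871% and 25.3%. A match describes the letters and shows no binding. The AP-1 letters were in *Sucnr1*, *Atp13a4*, *Slco2b1*, *Hoxd11*, *Stfa3*, *En1* and *Slc6a14*, and the E-box in *Tac1*, *Hoxd10*, *Bex1*, *Chat*, *En1*, *Cpne4*, *Rspo4* and *Gm2427*. The RefSeq start lay 22369 bases from that of the counted gene for *Cpne4* and 4660 for *Gm2427*, so their promoters are uncertain.

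The 250 bases before the start are printed for 5 of these. They are the gene of highest CPM with AP-1 letters (*Sucnr1*), that with an E-box (*Tac1*), the adjoining *Hoxd10* and *Hoxd11*, and *En1*, which had both. Capitals mark the AP-1 and E-box letters. In *En1* the AP-1 letters begin 163 bases before the start and run into the E-box that begins at 158, with a further E-box at 175.
Sucnr1 (chr3:60081619-60081868, plus strand): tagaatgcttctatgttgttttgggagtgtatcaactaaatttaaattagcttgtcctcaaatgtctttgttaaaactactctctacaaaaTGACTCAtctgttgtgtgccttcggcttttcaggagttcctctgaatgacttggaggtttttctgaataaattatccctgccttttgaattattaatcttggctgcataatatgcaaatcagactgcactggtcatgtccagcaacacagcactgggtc
Tac1 (chr6:7554811-7555060, plus strand): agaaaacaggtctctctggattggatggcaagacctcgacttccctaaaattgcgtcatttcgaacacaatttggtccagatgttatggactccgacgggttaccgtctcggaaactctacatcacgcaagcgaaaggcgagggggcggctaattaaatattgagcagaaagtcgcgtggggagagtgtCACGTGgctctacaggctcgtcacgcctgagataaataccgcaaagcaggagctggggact
Hoxd10 (chr2:74691641-74691890, plus strand): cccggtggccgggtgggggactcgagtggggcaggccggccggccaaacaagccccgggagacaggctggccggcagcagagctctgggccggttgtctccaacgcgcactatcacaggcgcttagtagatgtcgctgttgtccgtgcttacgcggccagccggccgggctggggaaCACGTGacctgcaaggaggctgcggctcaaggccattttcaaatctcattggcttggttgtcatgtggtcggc
Hoxd11 (chr2:74679308-74679557, plus strand): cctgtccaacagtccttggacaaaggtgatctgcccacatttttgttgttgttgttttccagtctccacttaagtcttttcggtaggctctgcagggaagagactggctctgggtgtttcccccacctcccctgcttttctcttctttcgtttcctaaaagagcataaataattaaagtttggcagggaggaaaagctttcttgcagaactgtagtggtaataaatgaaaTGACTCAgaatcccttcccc
En1 (chr1:120602237-120602486, plus strand): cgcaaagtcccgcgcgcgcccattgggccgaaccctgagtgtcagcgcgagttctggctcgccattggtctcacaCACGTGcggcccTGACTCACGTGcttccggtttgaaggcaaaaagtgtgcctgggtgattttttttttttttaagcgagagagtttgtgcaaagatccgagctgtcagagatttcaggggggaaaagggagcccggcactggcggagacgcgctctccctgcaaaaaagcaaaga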

How the data were processed

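RNA-seq of 3 control and 3 senescent MAF samples was used. Per the labels and methods, the authors made stranded mRNA libraries from total RNA, aligned paired reads to mm10 with STAR in MAPRSeq and counted reads per gene with Subread; strand setting and handling of reads with several matches are not given in the sources used here. The deposited table holds raw counts, used as deposited, and RPKM columns, which were not used. Totals were 50288454 to 82229553 counts per library, and 3 counts, the floor for a control level of 0, equalled 0.0502 to 0.0613 CPM.

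The 204 genes were taken with a minimum of 10 counts. The genes, lists and roles were chosen with earlier results of these data known. Levels are TMM-scaled CPM, by which genes are ordered; values per kilobase of exon are named as such. All genes were fitted with edgeR 4.0.16 in R 4.3.3 (quasi-likelihood test, filterByExpr, group as the only term, Benjamini-Hochberg over 17589 genes, adjusted p under 0.05), checked on simulated data; of the 204 genes, 159 passed its expression filter and 45 did not, and their own p-values were not used. DESeq2 1.42.0 was an alternative. Strand and overlaps came from GENCODE M21 (202 of 204 identifiers found). Motif searches covered the stated letters on both strands.

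Genes named are the 15 highest, the 3 highest of each noncoding biotype, up to 4 of each symbol-pattern family with at least 2 of the 204, the most and least even 3 with a mean of at least 50 counts, those at the threshold and the largest run of neighbours; 5 of the 204 are counted in totals but not reported here by name or drawn. All others were named after their values were seen. Alternatives were other minimums, scaling to the smallest library, tolerance of 1 count, other normalization and filters, the replicate block and leaving out each library.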

Additional observations from a re-analysis of the deposited data

How the results depend on the processing

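The number of silent-to-on genes was set by the count limits. It was 425 at a minimum of 5 counts, 89 at a minimum of 20 and 399 when 1 count was tolerated in each control library. The exchanged direction gave 2, 0 and 3 genes under the same 3 changes. Leaving out 1 library gave 219 to 292 silent-to-on genes and 1 to 4 in the exchanged direction, fewer libraries having to meet the rule. At a minimum of 20 counts 92.1% of the genes were protein coding, and the other alternatives gave 81.9 to 88.8%. The median level was 0.350 CPM with library totals alone, against a main value of 0.341 CPM, and 0.339 to 0.345 CPM without 1 senescent library. Leaving out genes that overlap or follow a stronger gene, an alternative chosen after seeing the data, left 166. With the replicate number as a block, edgeR called 5964 genes higher and 5660 lower. The deviations of same-numbered samples from their group means had correlations of -0.374, 0.293 and -0.263. With mixed signs, these 3 values do not settle whether the numbers pair the samples. The main fit used no block. DESeq2 called 6415 higher and 5796 lower. Of 59 alternatives over all results, 50 stayed close to the main value and 9 moved. Close meant a count within 1.5 times, a percent within its exact 95% binomial interval, or the median level within 1 SD of the 3 libraries. Reversal of a result was not scored. Depth limits the set at its lower end, where 16 genes rest on exactly 10 counts in a library.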
